A study of Caenorhabditis elegans with 2 samples.

Results

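The subject is the tRNA genes of the X chromosome of Caenorhabditis elegans and the signal of BED-2, which has a zinc finger of the BED type, at their starts. Members were all genes of biotype tRNA on chromosome X in the Ensembl annotation, which gave 276 of 46890 nuclear genes. They are 45.1% of the 612 nuclear tRNA genes, at 15.6 genes per Mb of X against 3.73 to 4.64 per Mb on the 5 autosomes. Signal was measured by chromatin immunoprecipitation and sequencing (ChIP-seq) in 2 biological replicates of 1 group. Both are whole young adult worms of strain RW12335, aged 63 hours and synchronised by starving L1 larvae after bleaching. All carry st12335[TY1::EGFP::3xFLAG::bed-2] III, a CRISPR insertion that tags bed-2 at its own locus on chromosome III, and anti-GFP antibody pulled the protein down. No worms without the tag and no input control were analysed here, so whether the signal depends on the tagged protein was not tested. In whole worms, strong occupancy in few cells and weak occupancy in many cannot be told apart.

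A tRNA carries 1 amino acid to the ribosome, and its isotype names that amino acid. RNA polymerase III transcribes tRNA genes from promoters inside the gene, the A box and the B box, which transcription factor TFIIIC binds. BED zinc fingers are DNA-binding domains found in chromatin and transposon-derived proteins. The label was checked on annotation and sequence. All 276 genes had the same span in RefSeq, 273 had an isotype there, and 268 held the B box core GTTCNANNC on the sense strand. Genes were 64 to 120 bases long, with a median of 72. The lists hold no expression values, so the stage could not be checked against marker genes.

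Each gene was given the highest signal among peaks of the deposited ranked list whose summit lay within 500 bp of its start. Signal is the authors' own value per peak, in units that have no read count behind them here, and the depth of each library is unknown. A peak was called when it was also in the authors' conservative list, which keeps peaks that ranked alike in the replicates by the irreproducible discovery rate (IDR), at a global IDR of 0.01. Offsets run along the gene's strand, with negative values upstream of the start. Members that share a peak share 1 series signal and are not independent, while replicate values were taken for each gene and can differ between them.

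Nearly all X-linked tRNA genes had a candidate peak, and a smaller share had a called one. A ranked summit lay within 500 bp of 260 of the 276 genes (94.2%), at 213 distinct peaks. The same held for 298 of 336 autosomal tRNA genes (88.7%) and for 3836 of 5746 other genes on X (66.8%). The peak was called for 39 of the 260 (15%), at 31 distinct peaks. The background was 9.4% of autosomal tRNA genes (28 of 298), 1.9% of other genes on X (73 of 3836) and 2.84% of all genes with a summit in reach (661 of 23249). By chromosome, the share called of tRNA genes with a summit was 6.78% on III (4 of 59) and 7.14% on II (4 of 56). It was 10.7% on I (6 of 56), 10.9% on IV (6 of 55), 11.1% on V (8 of 72) and 15% on X. Each autosomal share thus rests on few called genes. These shares count genes, which share peaks and sequences, and no test was made across them. The groups also overlap, since all genes include the tRNA genes. A called peak of a member counts as well for any other gene on X where it is the highest in reach.

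Seen from the peaks, 31 of the 96 conservative peaks on X (32.3%) had a tRNA start within 500 bp, against 27 of 519 on the autosomes (5.2%). Ranked peaks gave 312 of 15077 on X (2.07%) and 412 of 67224 on the autosomes (0.613%). Each replicate's own thresholded list gave 8 of 29 X peaks (27.6%) and 2 of 209 autosomal peaks (0.957%) in replicate 1. In replicate 2 the counts were 16 of 38 (42.1%) and 8 of 218 (3.67%). The share was thus higher on X in both replicates, along with the higher density of tRNA genes there.

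Signal at the 260 X-linked genes ranged from 3.31 to 124.8, with a median of 44.2 and quartiles of 32.9 and 59.1. The median was 41.7 for autosomal tRNA genes, 27.2 for other genes on X and 25.9 for all genes. The tRNA genes of X and of the autosomes thus lay close together, and both lay above other genes on X. In the replicates' own ranked lists the X-linked median was 23.5 in replicate 1 (229 genes) and 25.8 in replicate 2 (236 genes). In the same lists the medians were 21.9 and 25.8 for autosomal tRNA genes, and 15.7 and 18.2 over all genes.

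**Figure D1:**
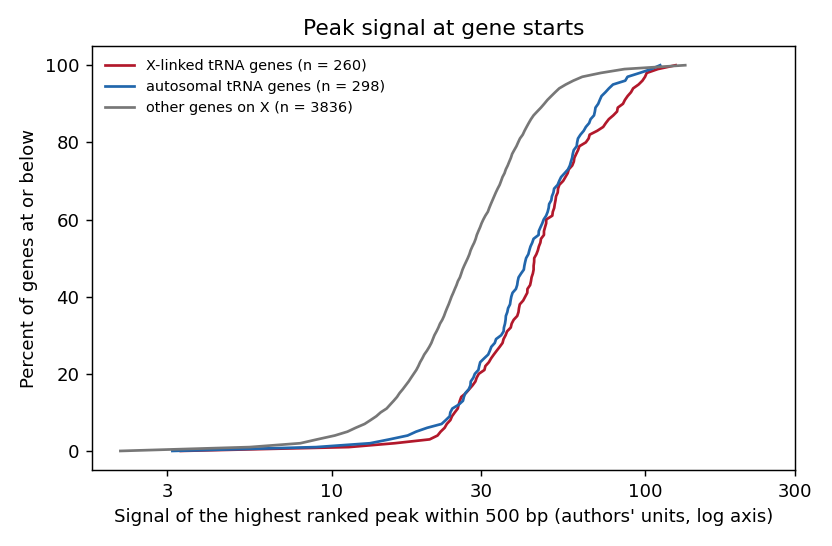
The x axis gives the signal of the highest ranked peak within 500 bp of the gene start in the authors' units on a log axis, and the y axis the percent of genes at or below it, for 260 X-linked tRNA genes, 298 autosomal tRNA genes and 3836 other genes on X. Both tRNA curves lie to the right of the other genes on X except at the top end, with medians of 44.2, 41.7 and 27.2. The maxima are 124.8, 111.4 and 133.9 in the same order.

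The highest signals belonged to genes of different isotypes. The first was F41D9.t3 (WBGene00023042, asparagine, chrX:8404499-8404571 on the plus strand of ce11), in an intron of sulp-3 on the opposite strand. It had 124.8 in the series list, 54.4 in replicate 1 and 68.2 in replicate 2, with the summit 11 bp before its start. Its peak was number 107 of 82301 ranked peaks by signal. Of the called genes it had the highest signal in replicate 2, and another gene led in replicate 1.

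The next peak held both genes of a tandem alanine pair, F15G9.t1 (WBGene00014333) and F15G9.t2 (WBGene00014334), in introns of him-4, which encodes the extracellular matrix protein hemicentin. The peak had 110.6 in the series list, 45.1 in replicate 1 and 60.1 in replicate 2. Its summit fell between the genes, 121 bp after the start of F15G9.t1 and 37 bp before that of F15G9.t2. The start of F15G9.8, a non-coding RNA gene, lay 32 bp from the summit, nearer than either tRNA start. The gene sequences differ at 7 positions counted from 1 at the 5′ end of the gene: G16T, G29C, T33A, C39G, A44G, T46G and G56A, with the base of F15G9.t1 first. The region is printed from the RefSeq genome of ce11 to show the spacing, with the genes in capitals, and the summit is base 142 of 270.

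F15G9.t1 and F15G9.t2, chrX:9743569-9743838, plus strand: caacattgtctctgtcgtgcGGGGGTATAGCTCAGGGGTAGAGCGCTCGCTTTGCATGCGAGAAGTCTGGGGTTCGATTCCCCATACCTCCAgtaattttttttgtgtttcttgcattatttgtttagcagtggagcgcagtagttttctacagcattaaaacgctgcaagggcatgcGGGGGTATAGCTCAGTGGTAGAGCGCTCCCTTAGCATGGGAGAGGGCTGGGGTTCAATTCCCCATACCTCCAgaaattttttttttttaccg

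A tandem proline pair, C16B8.t2 (WBGene00022928) and C16B8.t3 (WBGene00022929), lies outside any protein-coding gene, with starts 169 bp apart against 158 bp in the alanine pair. The peak had 91.4 in the series list, 44.8 in replicate 1 and 45.2 in replicate 2, so the replicates were close. The summit lay 112 bp after the start of C16B8.t2 and 57 bp before that of C16B8.t3. Neither gene holds the B box core GTTCNANNC, which 8 of the 276 genes lack, all 8 with a ranked summit and these 2 called. Each C16B8 sequence occurs at 1 tRNA gene of the genome, and the pair differs by C66T. The summit is base 133 of the 281 printed, with the genes in capitals.

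C16B8.t2 and C16B8.t3, chrX:3970076-3970356, plus strand: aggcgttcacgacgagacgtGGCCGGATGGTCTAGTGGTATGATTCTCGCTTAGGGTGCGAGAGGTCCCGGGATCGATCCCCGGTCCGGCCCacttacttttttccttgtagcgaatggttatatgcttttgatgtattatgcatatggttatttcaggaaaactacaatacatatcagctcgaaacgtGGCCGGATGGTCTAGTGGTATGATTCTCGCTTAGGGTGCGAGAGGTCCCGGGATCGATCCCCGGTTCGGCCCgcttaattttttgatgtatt

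The common proline sequence is that of F46G11.t1, shared by 24 tRNA genes of the genome, 13 of them on X. C16B8.t3 differs from it by A6G, T33A, T53A and A56G, with the base of F46G11.t1 first, and 2 of these lie in the B box core of F46G11.t1, printed in capitals.

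F46G11.t1: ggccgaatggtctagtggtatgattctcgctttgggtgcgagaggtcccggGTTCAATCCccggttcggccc

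Among the small amino acids, glycine genes had 6 of 19 called (31.6%) and the highest median signal of any isotype, 64.5. M02F4.t1 shared a peak of 99.7 with the divergent glutamate gene M02F4.t2, with 61.7 in replicate 1 and 39.5 in replicate 2. That replicate 1 value was the highest among all members, while in replicate 2 the peak was among the lowest of the called genes. T10B10.t1 and T10B10.t2, a divergent pair, had 98.7, with 50.1 in replicate 1 and 48.1 in replicate 2. F17H10.t1, in an intron of the sorting nexin gene snx-17, had 96.3, with 34.2 in replicate 1 and 62.6 in replicate 2. C28G1.t2 and C28G1.t3, also divergent, had 79.0, with 27.9 and 55.6. The glycine peaks thus lay on both sides of equal signal between the replicates. Each C28G1 sequence occurs at 1 tRNA gene, and both are printed with the B box core in capitals because neither has an identical copy elsewhere. Most of each sequence still matches other glycine genes, and 86.7% of 50-base words around the summit occur once in the genome.

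C28G1.t2: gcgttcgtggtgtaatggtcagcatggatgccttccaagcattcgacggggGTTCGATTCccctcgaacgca
C28G1.t3: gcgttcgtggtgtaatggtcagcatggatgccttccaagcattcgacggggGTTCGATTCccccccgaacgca

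Alanine genes had 3 of 13 called (23.1%), the F15G9 pair and T07H6.t2. The signal of T07H6.t2 was 75.01, with 39.6 in replicate 1 and 43.2 in replicate 2. Its summit lay 8 bp before the start.

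Leucine, valine and isoleucine carry branched side chains. Leucine had 6 of 17 genes called, the highest share of any isotype at 35.3%, with a median signal of 43.7 over the 17. C04A11.t1 (WBGene00000308) had 95.7, with 36.9 in replicate 1 and 56.8 in replicate 2. C04E7.t1 (WBGene00022908) had 94.7, with 44.9 and 45.9. It was among the 5 called members that also passed the threshold in each replicate's own list. W02H3.t1 had 90.2, with 49.3 in replicate 1 and 41.7 in replicate 2. C40H5.t1 had 90.0, with 54.4 in replicate 1 and 38.9 in replicate 2. Both were higher in replicate 1, unlike C04A11.t1. F42F12.t1 had 74.7, with 29.1 and 40.2, and C53C7.t3 had 70.2, with 29.0 and 40.8, the lowest signal of any called member.

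The leucine genes differ widely in sequence. C04A11.t1 and F42F12.t1 are 119 and 120 bases long, and of the 4 members over 100 bases these 2 were called. C04E7.t1 and W02H3.t1, both 82 bases, differ by A3T, C16T, A35T, T50C and T79A, with the base of C04E7.t1 first. All 4 are printed with the B box core in capitals.

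C04A11.t1: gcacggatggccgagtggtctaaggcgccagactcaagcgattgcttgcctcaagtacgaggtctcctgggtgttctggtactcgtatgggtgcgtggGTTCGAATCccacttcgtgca
F42F12.t1: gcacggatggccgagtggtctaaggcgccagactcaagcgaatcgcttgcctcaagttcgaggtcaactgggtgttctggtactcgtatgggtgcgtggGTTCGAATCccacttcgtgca
C04E7.t1: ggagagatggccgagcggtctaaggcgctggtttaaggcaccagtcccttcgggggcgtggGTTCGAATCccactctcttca
W02H3.t1: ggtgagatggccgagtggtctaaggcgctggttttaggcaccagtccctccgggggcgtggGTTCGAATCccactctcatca

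Valine had 4 of 13 called (30.8%). R04D3.t2 had 89.6, with 38.9 in replicate 1 and 44.6 in replicate 2. F59C12.t3 had 85.9, with 25.4 in replicate 1, the lowest replicate 1 value of a called member, and 62.9 in replicate 2. The convergent pair C16H3.t1 and C16H3.t2 had 73.3, with 27.7 and 46.7, and the summit was 38 and 248 bp after their starts. All 3 valine peaks were higher in replicate 2. Isoleucine had 1 of 12 called (8.33%), C42D8.t1 (WBGene00022958). It had 104.4, with 42.6 in replicate 1 and 59.0 in replicate 2, and the summit lay 8 bp inside the gene.

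Proline, whose ring fixes the peptide backbone, had 4 of 18 genes called (22.2%). These were the C16B8 pair and the divergent pair F46G11.t1 and F46G11.t2. The latter peak had 87.6, with 35.5 in replicate 1 and 48.1 in replicate 2, and lay upstream of both genes, by 102 and 88 bp.

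Of the charged amino acids, aspartate had 3 of 12 genes called (25%), lysine 2 of 16 (12.5%), glutamate 1 of 21 (4.76%) and arginine 1 of 27 (3.70%). Arginine has the most members, and its share, which rests on 1 called gene, was close to that of all genes. The lysine gene C33G3.t2 (WBGene00014275) had 108.8, with 46.8 in replicate 1 and 58.5 in replicate 2. It lies outside protein-coding genes and its summit was 15 bp before the start. The aspartate gene F38G1.t2 (WBGene00023035), in an intron of the fibroblast growth factor gene egl-17 on the opposite strand, had 100.9, with 48.4 and 51.9. R03E1.t2 shared a peak of 81.4 with the divergent serine gene R03E1.t1, with 35.8 in replicate 1 and 41.7 in replicate 2. F52H2.t1, in an intron of the amino acid transporter gene aat-3, had 80.8, with 41.5 and 40.9. W03G11.t1, the other called lysine gene, had 82.2, with 38.4 and 46.8. Replicate 2 was the higher at each of these peaks except that of F52H2.t1. The arginine gene C18A11.t2 had 81.2, with 31.95 in replicate 1 and 54.6 in replicate 2. Its summit was 322 bp after the start, the farthest of any called member, while C18A11.13, a non-coding RNA gene, starts 239 bp from it. All 50-base words around that summit occur once in the genome, which held for 1 of the 39 called members.

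The amides were asparagine, with F41D9.t3 alone called of 6 (16.7%), and glutamine, with R04A9.t1 alone called of 15 (6.67%). R04A9.t1 (WBGene00023117) lies in an intron of ZK1193.2 on the opposite strand. Its signal was 100.95, with 47.5 in replicate 1 and 53.0 in replicate 2, and the summit was 29 bp before the start. C33G3.t2 and R04A9.t1 are printed with the core in capitals as the lysine and glutamine genes of highest signal.

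C33G3.t2: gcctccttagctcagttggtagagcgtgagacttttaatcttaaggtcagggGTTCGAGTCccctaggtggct
R04A9.t1: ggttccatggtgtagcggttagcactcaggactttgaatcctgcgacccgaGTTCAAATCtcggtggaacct

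Serine, threonine and tyrosine carry hydroxyl groups. Tyrosine had 2 of 8 called (25%), serine 2 of 18 (11.1%) and threonine 1 of 11 (9.09%). The serine gene E03E2.t1, in an intron of the monoamine transporter gene cat-1 on the opposite strand, had 95.1, with 40.4 in replicate 1 and 59.0 in replicate 2. The threonine gene T25B6.t2 had 88.1, with 25.9 in replicate 1 and 65.4 in replicate 2, and the summit was on its first base. Of the called members it had the largest log2 ratio between replicates, 1.34. The tyrosine genes were C02B4.t2, with 86.1, 29.7 and 53.0 in the series list and the replicates in order, and R11.t1, with 78.4, 35.4 and 41.5. All 3 isotypes were higher in replicate 2 at their called peaks.

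Methionine had 1 of 8 called (12.5%). The family of identical sequence that holds C02F12.t1 had 1 of 5 genes on X called, and the other methionine family 0 of 3. C02F12.t1 had 81.9, with 28.0 in replicate 1 and 52.5 in replicate 2. No gene was called for cysteine (7 genes with a summit), histidine (5), phenylalanine (6) or tryptophan (5), nor for the 3 genes with no isotype given. Called genes thus came from 16 of 20 isotypes. Cysteine had a median signal of 51.2, above the median of all members, and tryptophan one of 30.7, so a lack of calls went with both high and low medians. With so few genes per isotype the order of the shares was not tested.

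**Figure D2:**
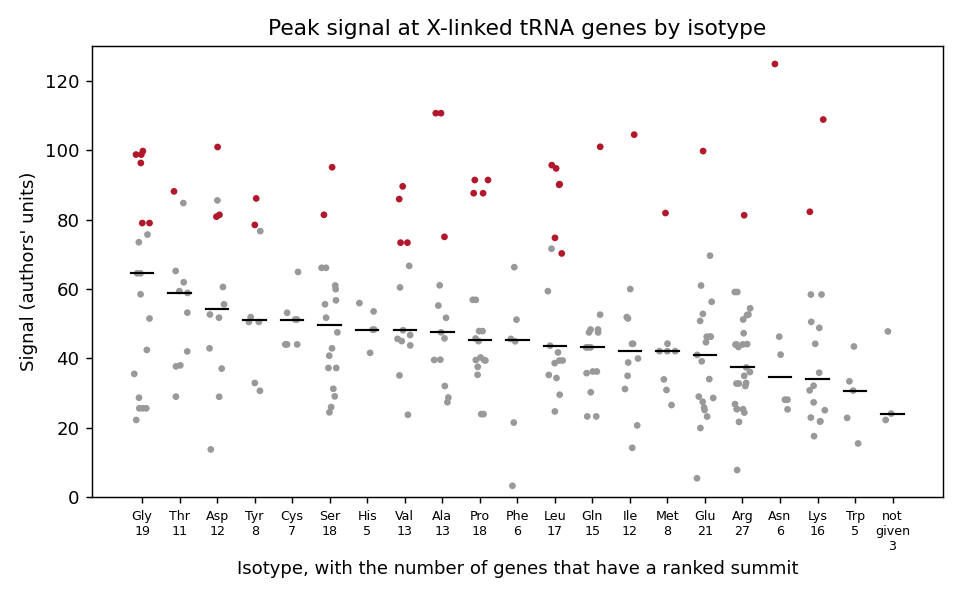
Each point is an X-linked tRNA gene, with its signal in the authors' units on the y axis and its isotype on the x axis, over the number of genes with a ranked summit. Bars are medians, from 64.5 for glycine, and red marks the 39 called genes, which all lie at 70.2 or above.

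Members at the low end had peaks well below the rest. The lowest were T25D1.t2 (phenylalanine, 3.31), C39D10.t1 (glutamate, 5.47) and ZK380.t1 (arginine, 7.84). Just inside the threshold stood F59C12.t3 at a global IDR of 0.0097, F42F12.t1 at 0.00967 and C53C7.t3 at 0.00954. Just outside stood K09A11.t1 (tyrosine, 76.7, global IDR 0.0106), C52G5.t1 (valine, 66.7, 0.0110), F12D9.t2 (glutamate, 69.6, 0.0125), F56C3.t1 (glycine, 75.7, 0.0148) and ZK678.t1 (leucine, 71.6, 0.0149). The groups overlapped in signal, since 6 uncalled genes had at least 70.2, the lowest called signal. They include C06G1.t2 (aspartate) at 85.5 and R01H5.t1 (threonine) at 84.7, whose replicates differed widely, with 59.6 and 20.6 for the former and 23.5 and 64.2 for the latter. The replicate 1 value of R01H5.t1 is the highest in reach, and the signal that the ranked list matches to its own peak in that replicate was 5.19.

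The replicates ranked the genes alike only in part. Each replicate's value is the highest in reach of the gene, which need not be the peak reported from the series list. It equalled the signal matched to that peak for all 39 called genes, and among uncalled genes with a summit for 164 of 188 in replicate 1 and 174 of 193 in replicate 2. Over the 208 members with a value in both, Pearson's r of log2 signal was 0.47 and Spearman's rho 0.49. These values run across genes of the same libraries, with neighbours sharing peaks, and are descriptions. Over all 10169 genes with both values they were 0.47 and 0.38. Replicate 2 was higher at 133 of the 208, with a median log2 ratio of 0.20, against 0.28 for autosomal tRNA genes and 0.22 over all genes. The lowest log2 ratios belonged to C06G1.t2 (-1.54), F22F1.t2 (serine, -1.51) and C03F11.t1 (methionine, -1.41). At F22F1.t2 the replicate 2 value was 12.7, and the signal matched to its peak was 15.9. The highest belonged to R02E12.t1 (glycine, 1.68), F52E10.t5 (glutamate, 1.79) and C05E7.t2 (glutamine, 2.08), and none of the genes at either end was called. The replicate 1 value of C05E7.t2 was 7.12, while C05E7.t1, which shares its series peak, had 23.7.

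The 39 called genes ran from 25.4 to 61.7 in replicate 1 (median 38.9) and from 38.9 to 68.2 in replicate 2 (median 48.1), and 32 were higher in replicate 2. The 221 uncalled genes with a summit reached 59.6 and 64.2, so both replicates overlapped between the sets. The call was made from these libraries and both sets are given as a description. Of the 39, 10 also passed the threshold in replicate 1's own list and 15 in that of replicate 2. Those that passed in both were F41D9.t3, F15G9.t1, F15G9.t2, C33G3.t2 and C04E7.t1. The authors' optimal list held the peaks of 34 of the 39 genes, which are 27 of the 31 called peaks. The 5 genes whose peak it lacked were C02F12.t1, C28G1.t2, C28G1.t3, F42F12.t1 and C53C7.t3.

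**Figure D3:**
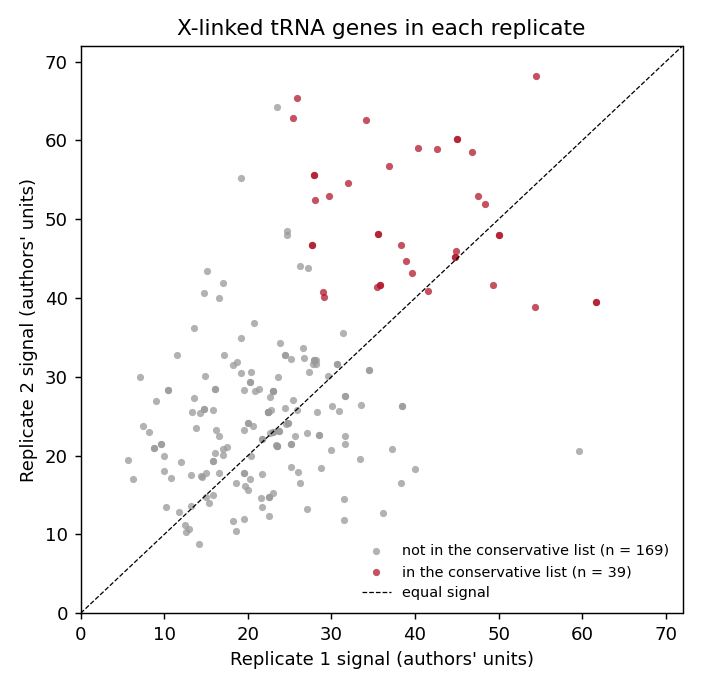
Each point is 1 of the 208 X-linked tRNA genes with a value in both replicates, with replicate 1 signal on the x axis and replicate 2 signal on the y axis, in the authors' units. The dashed line marks equal signal, and the 39 called genes (red) all lie at 25.4 or above in replicate 1 and 38.9 or above in replicate 2.

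Summits lay near the gene start. The median offset was 15 bp, inside the gene, with quartiles of -50.5 and 67.25, and it was 23 bp for autosomal tRNA genes and 31 bp for all genes, whose quartiles were -210 and 238. The summit was upstream of the start for 110 of the 260 genes, inside the gene for 89 and past its end for 61. It lay within 100 bp of the start for 171 of the 260 genes (65.8%), close to the 188 of 298 autosomal tRNA genes (63.1%). Among the members, that held for 33 of the 39 called genes (84.6%) and 138 of the 221 others (62.4%). Each of the 213 distinct peaks was 320 bp wide, longer than any member gene, so a summit inside a gene does not place the signal within it. Just inside the 500 bp limit were F22H10.t1 (serine, offset 499, signal 29.1) and C31E10.t1 (glycine, -487, 28.7), and just outside were F39B1.t1 (valine, 503, 39.1) and R04E5.t4 (glycine, 509, 64.9).

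**Figure D4:**
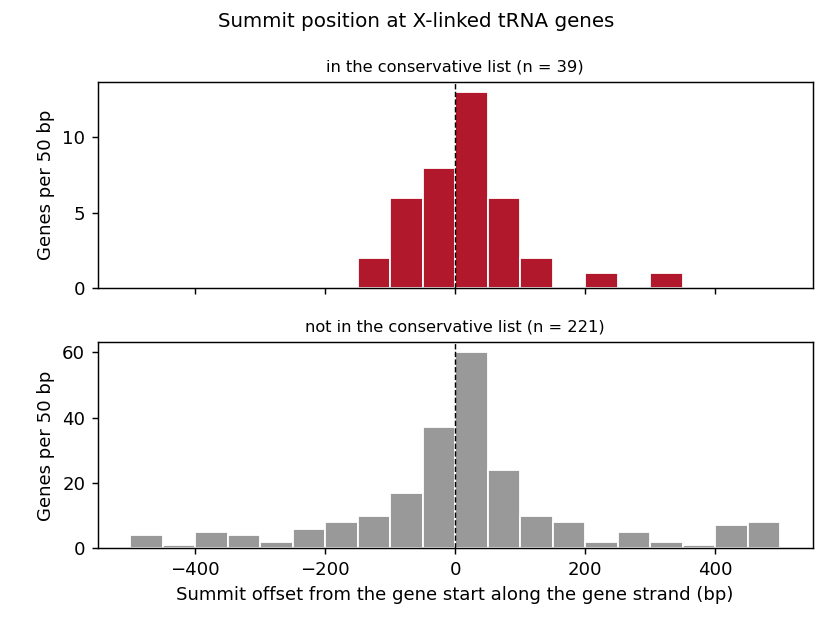
Histograms give genes per 50 bp of summit offset along the gene strand, with the gene start at 0, for the 39 called X-linked tRNA genes (top) and the 221 others with a summit (bottom). Called summits gather around the start, 33 of 39 within 100 bp.

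Windows of 101 bp centred on the summits were searched for the B box core GTTCNANNC on both strands. The core was in 43.2% of the 213 peaks of X-linked tRNA genes, 45.2% of the 31 called ones and 37.8% of 270 autosomal tRNA peaks. It was in 4.37% of all 82301 ranked peaks, and in 2 of the 65 conservative X peaks without a tRNA start (3.08%). The members carry the box as tRNA genes, so a match describes where the peaks lie on the genes and is not a site. For 168 genes alone at their peak, the summit lay a median of 36.5 bp before the centre of the box, with quartiles of 88 and 1.5 bp before it. Median GC content of the windows was 46.5% for the members' peaks, 49.5% for the called ones and 40.6% for all ranked peaks, and the part of base composition in the calls was not tested.

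Many members shared a peak. There were 87 genes at 40 shared peaks, of which 35 held 2 genes, 4 held 3 and 1 held 5, and 30 of the 40 held a single isotype. The largest group was K01A12.t1 to K01A12.t5, of arginine and cysteine genes, with a signal of 44.0 and no call. Called shared peaks numbered 8, with 16 genes, of which 5 were divergent, 2 tandem and 1 convergent pairs. Among uncalled pairs, 12 were divergent, 9 tandem and 6 convergent. Sharing genes had 16 of 87 called (18.4%) and genes alone at their peak 23 of 173 (13.3%), and a peak with 2 genes counts here for both.

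Genes of identical sequence differed in signal. Of the 276 genes, 219 have an identical copy at another tRNA gene of the genome, and 203 fall in 33 sequence families with at least 2 copies on X. A called gene stood in 19 families, and each of these also held an uncalled gene with a summit, so no family was called throughout. In the asparagine family of F41D9.t3, with 5 copies on X, signals ran from 28.1 at ZK154.t5 to 124.8. The 11 glycine copies of the M02F4.t1 sequence ran from 22.3 at C28G1.t4 to 99.7, and the 12 glutamate copies of the M02F4.t2 sequence from 19.9 at F52E10.t5 to 99.7. The 13 proline copies of the F46G11.t1 sequence ran from 35.3 at ZK899.t1 to 87.6. Within 320 bp around a summit, a median of 87.1% of 50-base words occurred once in the genome for members and 87.8% for autosomal tRNA genes, and 86.0% for called members. Reads that match several copies cannot be placed by sequence alone, and how the authors placed them is not given in the sources used here.

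By location, 95 members lay in introns of protein-coding genes, 1 overlapped an exon and 180 lay outside such genes. Called genes were 10 of 93 with a summit in introns and 29 of 166 outside (17.5%). With X cut into 3 stretches of equal length, the left one held 51 genes with 13 of 48 called (27.1%), the middle one 107 genes with 10 of 104 (9.62%) and the right one 118 genes with 16 of 108 (14.8%). Median signals of these stretches were 48.4, 43.5 and 46.2. Shares of other genes on X in these stretches are not given here, members that share a peak each count, and no difference between stretches was tested. The start of a gene of another biotype was nearer to the summit than the tRNA start for 70 of the 260 members and 9 of the 39 called.

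No ranked summit lay within 500 bp of 16 members. They comprised 4 histidine genes of 1 cluster, F28H6.t3 to F28H6.t6, with 3 threonine, 2 lysine, 2 glutamate and 2 proline genes and 1 each of valine, glycine and isoleucine. Their nearest summits lay 503 to 9491 bp away, the farthest from Y59E1B.t2. Of the 16, 13 have an identical copy elsewhere.

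A list of 12 related genes held subunits and factors of RNA polymerase III, its repressor gene mafr-1 and the RNase P RNA gene rpr-1, which is not a part of that polymerase. Of the 12, 8 had a ranked summit in reach and 2 of the 8 were called. Over all genes, 49.6% had such a summit, and 2.84% of those were called. One of the called genes was rpr-1, the RNA component of RNase P, which trims precursor tRNAs, with 172.7 in the series list, 59.6 in replicate 1 and 112.3 in replicate 2. The other was rpac-19, a subunit shared by RNA polymerases I and III, with 85.1, 37.1 and 46.9. The signal of rpr-1 was above that of every X-linked tRNA gene. Not called were brf-1 (37.1) and tbp-1 (54.0), which act in TFIIIB, the subunit genes rpc-1 (19.8) and rpc-2 (30.6), the TFIIIC gene tftc-3 (40.8) and mafr-1 (20.9). No ranked summit was in reach of rpc-11, tftc-1, tftc-5 or rpac-40.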

How the data were processed

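The data were 8 peak lists of ChIP-seq on assembly ce11, 4 of the series and 4 of single replicates, in 1 group of 2 replicates. In the deposited lists, each peak has a signal, a score and, in ranked lists, the −log10 of the global IDR, all made by the authors, and another deposited column holds the summit offset. Which aligner and which caller made them is not given in the sources used here, and depth is unknown. Per the text deposited beside the samples, lists of the series are made from both replicates and thresholded lists also derive from a further file, whose content it does not state, and 21 ranked peaks past the threshold are absent from the conservative list, none of them at a member. In the ranked list of the true replicates, the first matched signal stood in replicate 1's list for 57.3% of rows and the second in that of replicate 2 for 57.6%. The report uses each replicate's own list, taking the highest peak in reach. Within 1e-05 it equalled the matched signal for all 39 called members in both replicates, and for 203 of 227 members in replicate 1 and 213 of 232 in replicate 2 with a value, so that others may differ in peak. A further 6 matched-peak signal columns were not used.

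Genes came from Ensembl release 115, isotypes and sequence from RefSeq on the same assembly. Anticodons are not in the sources used here. Where a gene had several B box cores, the one nearest to 20 bases before its end was taken. Peak assignment was tested on 3000 simulated starts and recovered 100% of the planted peaks that lay within reach. The simulated starts stood too far apart to share a peak, so shared peaks were not covered. The members and lists were chosen with earlier results of these data known. Named genes were all called members, the 10 highest and 3 lowest signals, the 5 closest to the threshold outside it, 3 at each end of the replicate ratio, 2 at each side of 500 bp and the largest shared group. Other genes were named after their values were seen. No tests across genes were made. Python 3.11.15, numpy 2.4.6, pandas 2.3.3, scipy 1.17.1 and matplotlib 3.10.9 were used.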

Additional observations from a re-analysis of the deposited data

How the results depend on the processing

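Of 55 alternatives to 7 results, 35 stayed within 1.5 times the count or within the spread of the replicates. The 39 called X-linked genes became 69 at a global IDR of at most 0.05 and 8 at 0.001, and the 28 autosomal ones 66 and 6. In the main setting, 260 X-linked and 298 autosomal tRNA genes had a summit. In the thresholded lists of replicates 1 and 2, the counts were 11 of 229 and 18 of 236 genes with a value on X. They were 4 of 265 and 11 of 273 on the autosomes, and 274 of 17561 and 286 of 17537 over all genes. Without genes of identical sequence, 54 members had a summit and 7 were called, with a median signal of 38.4. On the autosomes 6 were called, after removal of the 226 of 298 genes with a summit that have an identical copy. Genes with near-identical copies, such as the C16B8 pair, stayed in. The median signal was 46.3 at 1000 bp and 23.5 to 25.8 in single replicates, whose lists have a scale of their own. The median offset was 18 bp at 1000 bp, 16 bp with shared peaks counted once, and 19 to 20 bp in single replicates. Genes sharing a peak fell to 55 at 250 bp. Fewer genes or another threshold set these counts by construction, and the cause of the other shifts was not tested. In each setting with both counts given here, the X-linked count was above the autosomal one. The gap was only a few genes at the other global IDR limits and without genes of identical sequence. Fewer X-linked than autosomal tRNA genes had a summit, so these counts cannot be read as shares. Shares over all genes are not given for those settings, and no difference was tested. No paired analysis was possible because there is 1 group. Depth limits are unknown.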
